A study of Rattus norvegicus with 6 samples.

Results

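The miR-423 arms are the mature miRNAs miR-423-5p and miR-423-3p, cut from opposite sides of a single hairpin. They were selected by their row names, rno-miR-423-5p and rno-miR-423-3p, and are 2 of the 1071 miRNAs in the count table, of which 552 are known rat miRNAs and 519 were predicted by the authors. Both were among the 328 miRNAs that passed the filter on low counts. The cells were fibroblasts taken from the sciatic nerve of wild-type rats and left untreated. Small RNA was sequenced in 3 samples of the vesicles they release (extracellular vesicles, EV, which the study's design calls exosomal) and in 3 samples of RNA from inside the cells (Intracellular), the controls. The rats' age, the way the vesicles were isolated and whether replicates were separate cultures are not stated in the labels, so the spread between libraries may be technical. miR-423-5p had been picked because it was one of the known miRNAs with the largest rise in EV over Intracellular libraries. Its values, those of its partner arm and their ratio come from that contrast and are therefore given as a description, with no test.

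A miRNA hairpin is cut into a duplex of its 5p and 3p arms, and one strand is loaded into an Argonaute protein, where bases 2 to 8 (the seed) direct it to target transcripts. The other strand is usually degraded, so that one arm of a precursor usually predominates. The gene of miR-423 lies within Nsrp1, which encodes a splicing regulator. miR-423-5p is known as an abundant miRNA of blood serum and has been studied as a circulating marker of heart failure. Both arms appear on panels of reference miRNAs for serum and vesicle profiling.

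The mature sequences, read from the deposited table and written with U for T, are shown with the seed in capitals.
miR-423-5p: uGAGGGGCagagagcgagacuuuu
miR-423-3p: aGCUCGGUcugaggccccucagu
No other of the 551 known miRNAs with a single name had either seed, so neither arm shares its seed with a family member in these libraries. The 5p arm is 24 bases long, and 95.3% of the known miRNAs were shorter. It is rich in G, with 10 G and 3 C bases, a GC content of 54.2%. Of the known miRNAs, 93.6% had a smaller share of G. The 3p arm is 23 bases long, with 7 G and 8 C bases, and its GC content of 65.2% was above that of 93.3% of the known miRNAs.

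The hairpin is shown to place the arms, which are in capitals. The sequence is RefSeq's (Mir423, minus strand, chr10:62412272-62412350 of GRCr8). Nsrp1 is on the same strand and its span holds the whole hairpin. The submitters' notes name another build, and the coordinates here only give the place of the RefSeq sequence.
Mir423: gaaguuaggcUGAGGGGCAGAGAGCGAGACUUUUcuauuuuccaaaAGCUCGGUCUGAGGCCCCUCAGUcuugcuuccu
RefSeq's mature entry for miR-423-5p is identical to the deposited sequence. In the 79-base hairpin the 5p arm takes bases 11 to 34 and the 3p arm bases 47 to 69, with 12 bases between them. In the fold of lowest free energy computed with ViennaRNA (-43.7 kcal/mol), 17 bases of the 5p arm pair with bases of the 3p arm.

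Library totals were 81211 to 105578 counts in EV and 1839047 to 8859302 counts in Intracellular libraries, and levels are given as CPM, a library's counts scaled to a total of 1000000. A single count was worth 9.47 to 12.3 CPM in the EV libraries and at most 0.544 CPM in the Intracellular ones. The TMM factor of Intracellular replicate 1 (0.557) stood apart from those of replicates 2 and 3 (0.963 and 0.935). The 8 fibroblast and mesenchymal miRNAs listed for the check of the cell type, among them miR-143-3p, miR-199a-3p and miR-21-5p, summed to 440956 to 465565 CPM in EV libraries and 475402 to 496309 CPM in Intracellular libraries. Of the 8, 3 were called higher in EV (miR-214-3p, miR-29a-3p and miR-152-3p) and 4 lower with edgeR and TMM scaling, 3 and 0 with total counts. Among all 328 miRNAs tested, 25.6% were called higher and 17.1% lower with TMM, 32.6% and 0.915% with total counts. All 4 epithelial miRNAs were at 0 counts in EV and summed to at most 1.81 CPM in Intracellular libraries.

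miR-423-5p took a far larger share of the counts in the vesicles than in the cells. A share of counts is not an amount per vesicle or per cell, which was not measured. It had 494, 639 and 641 counts in EV replicates 1, 2 and 3, and 696, 1489 and 3684 counts in the much deeper Intracellular libraries. Scaled to library size, these are 6083, 6052 and 6943 CPM in EV libraries and 378.5, 449.4 and 415.8 CPM in Intracellular replicates 1, 2 and 3. Every EV library was high, and the lowest EV value was 13.5 times the highest Intracellular value. The means were 6359 ± 505 CPM in EV libraries and 414.6 ± 35.5 CPM in Intracellular libraries (SD, n = 3 each). Their ratio was 15.3, and the fold with TMM scaling was 9.62.

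miR-423-3p was also higher in EV, by a much smaller factor. It had 47, 75 and 68 counts in EV replicates 1, 2 and 3, against 401, 1289 and 2792 counts in Intracellular replicates 1, 2 and 3. These are 578.7, 710.4 and 736.5 CPM in EV libraries and 218, 389.1 and 315.1 CPM in Intracellular libraries. The groups did not overlap, but the lowest EV value was 1.49 times the highest Intracellular value, less than the factor of 1.78 between Intracellular replicates 2 and 1. The means were 675 ± 84.6 CPM in EV libraries and 307 ± 85.8 CPM in Intracellular libraries (SD, n = 3 each), a ratio of 2.2. CPM did not overlap between the groups, with EV higher, for 41.8% of the 328 miRNAs tested, so nothing is read from the lack of overlap for the 2 arms.

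**Figure D1:**
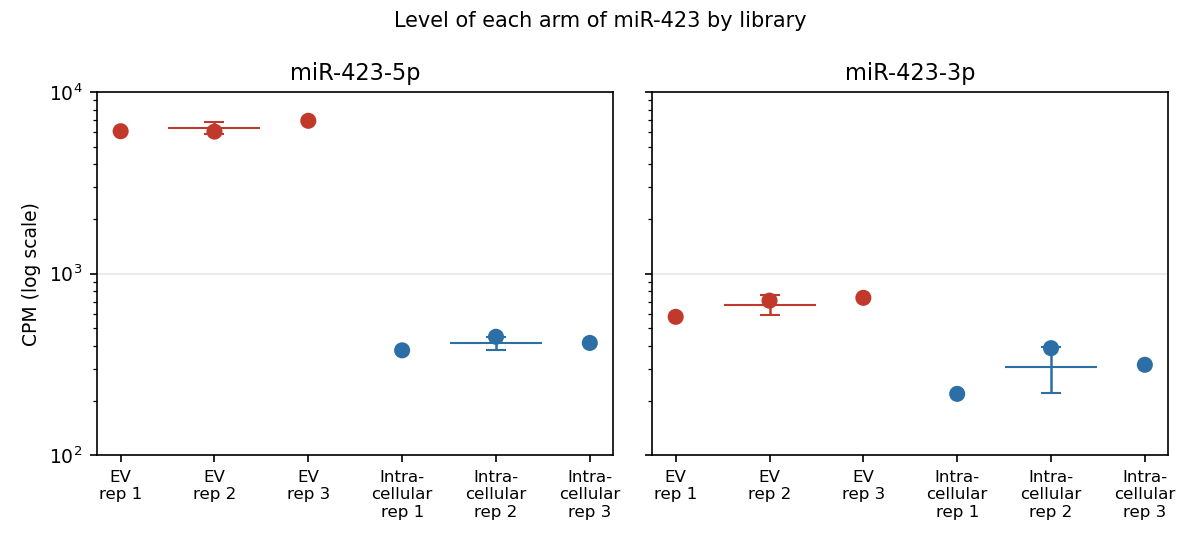
CPM (log axis) of miR-423-5p (left panel) and miR-423-3p (right panel) in each EV and Intracellular library, with the mean and SD of each group (n = 3) as a horizontal line with a bar. The EV libraries lie between 6052 and 6943 CPM for the 5p arm and between 578.7 and 736.5 CPM for the 3p arm, above all Intracellular libraries in both panels.

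The place of the arms among all 1071 miRNAs moved accordingly. In EV replicates 1, 2 and 3 miR-423-5p ranked 24, 25 and 23 by CPM, against ranks 68, 87 and 84 in the Intracellular libraries. miR-423-3p ranked 95, 88 and 80 in EV and 93, 95 and 103 in Intracellular libraries, about the same place in both. Together the arms took 7034 ± 560 CPM in EV libraries and 722 ± 121 CPM in Intracellular libraries (SD, n = 3 each).

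Among known miRNAs that passed the filter, those next to miR-423-5p in mean EV level were let-7b-5p, miR-27a-3p and miR-10a-5p above it and miR-379-5p, let-7e-5p and miR-29a-3p below it. Its EV range of 6052 to 6943 CPM overlapped that of miR-10a-5p (6452 to 6813 CPM) and lay apart from that of miR-379-5p (5285 to 5738 CPM). Inside the cells, 5 of these 6 stood at 3661 to 7433 CPM on average and the sixth, miR-29a-3p, a repressor of collagen genes, at 996 ± 314 CPM (SD, n = 3). miR-423-5p, at 414.6 CPM, was below all 6.

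In the fit across all 328 miRNAs (edgeR with TMM scaling, EV minus Intracellular), the log2 fold change was 3.27 (SE 0.22) for miR-423-5p and 0.52 (SE 0.21) for miR-423-3p. Of the 328, 25.6% were called higher in EV and 17.1% lower at an adjusted p under 0.05. miR-423-5p was 1 of the 84 higher calls, the result for which it was picked, and miR-423-3p was not among the calls. With total-count scaling, which called 32.6% of the 328 higher and 0.915% lower, the values were 3.94 and 1.14 and both arms were among the calls. This scaling moved the median log2 fold change of all 328 miRNAs by 0.61, to 0.55. Relative to the median of all tested miRNAs, miR-423-5p stood at 3.33 and 3.39, and miR-423-3p at 0.59 and 0.59, with TMM and total-count scaling. Without Intracellular replicate 1, the library with the low TMM factor, the log2 fold change was 3.56 for miR-423-5p and 0.63 for miR-423-3p.

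Of the 289 known single-name miRNAs tested, 9 had a larger log2 fold change than miR-423-5p and 77 a larger one than miR-423-3p. miR-423-5p had 1774 EV counts in all and miR-423-3p had 190. Of the 118 miRNAs, known or predicted, with at least 100 EV counts, 5 had a larger log2 fold change than miR-423-5p and 26 a larger one than miR-423-3p. All of these 9 and 5 above miR-423-5p, other than miR-122-5p, averaged at most 9.15 CPM in Intracellular libraries. They passed the filter through their EV libraries, so the place of miR-423-5p is partly set by the filter.

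The balance of the arms, which carries no library scaling, differed between vesicles and cells. For each count of the 3p arm there were 10.5, 8.52 and 9.43 counts of the 5p arm in EV replicates 1, 2 and 3, and 1.74, 1.16 and 1.32 in Intracellular replicates 1, 2 and 3. In the cells both arms were thus recovered at similar counts, and in each EV library the 5p arm predominated. The ratio averaged 9.49 ± 0.997 in EV libraries and 1.40 ± 0.299 in Intracellular libraries (SD, n = 3 each), and the lowest EV ratio was 4.91 times the highest Intracellular one. Adapter ligation and PCR recover some sequences better than others, so a ratio of counts is not a ratio of molecules.

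As a share of the counts of both arms, the 5p arm made up 91.3% (95% interval 88.6 to 93.5), 89.5% (87.0 to 91.6) and 90.4% (88.0 to 92.5) in EV replicates 1, 2 and 3. In Intracellular replicates 1, 2 and 3 it made up 63.4% (60.5 to 66.3), 53.6% (51.7 to 55.5) and 56.9% (55.7 to 58.1). The intervals are exact Clopper-Pearson ones and cover counting error only. They treat each count as independent, and the labels name no molecular identifiers to mark PCR copies, so they may be too narrow. The EV libraries had overlapping intervals, while those of the Intracellular libraries did not overlap each other. The 5p arm held most of the counts in all 6 libraries, so the major arm was the same in both groups.

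**Figure D2:**
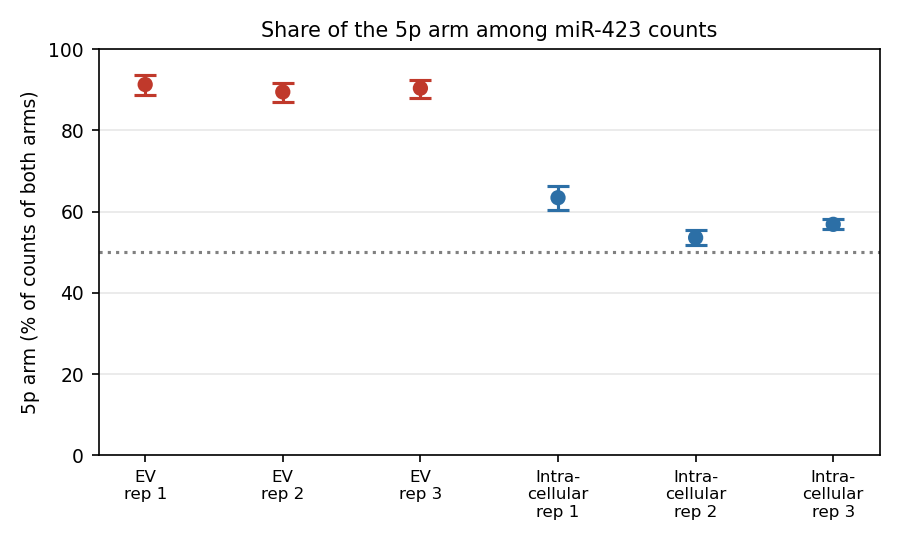
Share of the 5p arm (%) among the counts of both miR-423 arms in each library, with its exact 95% interval, and a dotted line at 50%. The EV libraries lie at 89.5% to 91.3% and the Intracellular libraries at 53.6% to 63.4%.

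The spread between replicates was set against counting error in each group. Both arms together had 541 to 714 counts per EV library and 1097 to 6476 per Intracellular library. In EV the chi-square per degree of freedom of the share of the 5p arm was 0.586, and the SD of its log2 ratio, 0.15, was below the 0.19 that counting alone gives. In Intracellular libraries the same quantities were 15.7, 0.30 and 0.06, a spread well above counting error. For the same spread the chi-square grows with depth, so these values do not show that EV replicates varied less. The CPM of the 3p arm had a coefficient of variation of 27.9% between Intracellular libraries, and that of the 5p arm 8.56%. Between EV libraries the coefficients were 12.5% for the 3p arm, where counting alone gives 12.6%, and 7.95% for the 5p arm, where it gives 4.11%. Intracellular replicate 1 had the lowest CPM of both arms and the highest share of the 5p arm in its group.

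On the log2 scale, with 1 count added to each arm, the ratio of 5p to 3p was 3.22 ± 0.15 in EV libraries and 0.47 ± 0.30 in Intracellular libraries (SD, n = 3 each), a difference of 2.75. Leaving out any 1 library gave differences of 2.62 to 2.92.

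To place this difference, the 73 known precursors with both arms past the filter were measured the same way. Their median difference in log2 ratio was -0.28, with quartiles at -1.01 and 0.50, and 31 moved towards the 5p arm and 42 towards the 3p arm in EV. The groups did not overlap, with EV towards the 5p arm, for 19.2% of the 73, miR-423 among them, and with EV towards the 3p arm for 32.9%. By size, 3 of the 73 moved further than miR-423. With at least 20 counts of each arm in each group, 30 precursors were left, of which 2 moved further, and 33.3% lay apart towards the 5p arm.

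The 5 precursors with the largest moves among these 30, other than miR-423, went in both directions. miR-345 moved towards its 5p arm by 3.33, from 20 and 26 EV counts of its 5p and 3p arms, and its SD in EV was 0.96. miR-455, encoded within the collagen gene Col27a1, moved towards its 5p arm by 2.67, with 443 and 28 EV counts. miR-148a, with a difference of -2.92, miR-152, with -2.43, and miR-140, a miRNA of cartilage and connective tissue, with -2.41, moved towards their 3p arms. The major arm changed from group to group for miR-148a and miR-140, as for 4 of the 30 precursors in all, but not for miR-423. The SD of miR-423 in EV (0.15) was below the 0.24 to 0.96 of these 5, and of the 5 only miR-152 had more EV counts in both arms together than the 1964 of miR-423. In the smaller arm, miR-148a had 242 EV counts, miR-423 had 190 and miR-152 had 32. Among all 30 precursors the SD in EV went as low as 0.07.

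**Figure D3:**
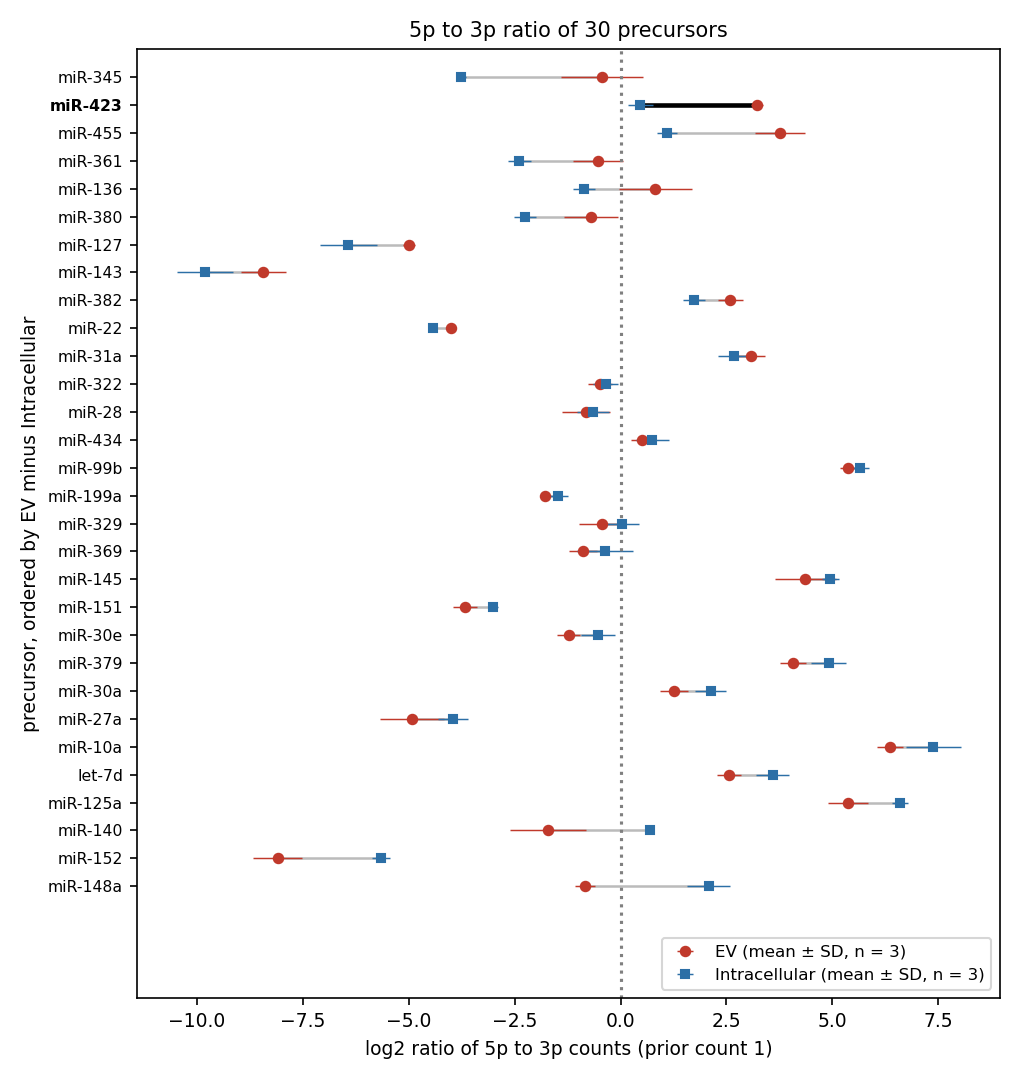
Log2 ratio of 5p to 3p counts for the 30 precursors with at least 20 counts of each arm in each group, as mean ± SD of 3 EV libraries (circles) and 3 Intracellular libraries (squares), ordered by their difference, with miR-423 in bold. miR-423 stands at 3.22 in EV and 0.47 in Intracellular libraries, second from the top of the order.

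The arms also differed in which other miRNAs their profiles resembled. Likeness was the root mean square difference of log2 CPM centred on the mean of the 6 libraries, among 169 other known miRNAs with at least 30 EV counts. It includes the difference between the groups. Nearest to miR-423-5p were miR-183-5p (0.44), miR-320-3p (0.47), miR-501-3p (0.55), miR-182 (0.55) and miR-378a-3p (0.56), against a median of 1.74 for all 169. miR-183 and miR-182 are neighbours in a cluster known from sensory organs, miR-320 is made without Drosha in mouse, and miR-378a is encoded within Ppargc1b. Of these 5, miR-378a-3p was the most abundant, at 3873 ± 1289 CPM in EV libraries and 409 ± 154 CPM in Intracellular libraries (SD, n = 3 each), and miR-320-3p stood at 1563 ± 145 CPM in EV libraries and 193 ± 42.0 CPM in Intracellular libraries. Nearest to miR-423-3p were miR-7a-5p (0.16), miR-22-3p (0.16), miR-23b-3p (0.17), miR-22-5p (0.18) and miR-298-5p (0.19), against a median of 0.55. The difference between the 2 arms of miR-423 was 1.39. By this measure miR-423-3p was number 37 of 169 in likeness to miR-423-5p, and miR-423-5p number 166 of 169 in likeness to miR-423-3p.

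Both arms are used as references in serum and vesicle studies, so 12 other miRNAs in such use were set beside them. Of these, 2 were called higher in EV and 3 lower with edgeR and TMM scaling, 4 and 1 with total-count scaling. Of all 328 miRNAs, 25.6% were called higher and 17.1% lower with TMM, 32.6% and 0.915% with total counts. Of the 289 known single-name miRNAs among them, 60 were called higher and 56 lower with TMM. The higher calls of the 12 are near these backgrounds. Their median log2 fold change was 0.04 with TMM and 0.65 with total counts, beside -0.06 and 0.55 for all 328 miRNAs. The highest in mean CPM were let-7i-5p, miR-24-3p, miR-191a-5p and miR-103-3p. In EV libraries miR-191a-5p averaged 2876 ± 413 CPM and miR-103-3p 2293 ± 262 CPM, and in Intracellular libraries 2244 ± 644 CPM and 2397 ± 699 CPM (SD, n = 3 each). Their log2 fold changes with TMM scaling were -1.12 for let-7i-5p, 0.20 for miR-24-3p, -0.26 for miR-191a-5p and -0.67 for miR-103-3p, of which let-7i-5p and miR-103-3p were among the lower calls. With total counts these were -0.36, 0.77, 0.36 and -0.06, and let-7i-5p alone was still called. Among the 12, the largest log2 fold change with TMM scaling was 1.48, for miR-484. The value of miR-423-3p (0.52) lay within the range of the 12, while that of miR-423-5p (3.27) lay above it.

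miR-122-5p, a liver miRNA that like miR-423-5p is found in serum, was also higher in EV. It had 12119 ± 1398 CPM in EV libraries and 194.7 ± 129.9 CPM in Intracellular libraries (SD, n = 3 each), and was the 1 of 3 liver and serum miRNAs called higher. The log2 fold changes of the others with TMM and total-count scaling were 0.15 and 0.74 for miR-192-5p and 0.14 and 0.72 for miR-194-5p, not called with either. The 3 summed to 11612 to 14069 CPM in EV libraries and 397.1 to 476.3 CPM in Intracellular libraries, and none was at 0 in either group. The 3 erythroid miRNAs summed to 151.5 to 221.6 CPM in EV libraries and 2.26 to 5.98 CPM in Intracellular libraries, with miR-144-3p at 0 in EV. Among the other markers, the 4 leukocyte miRNAs summed to at most 32.5 CPM in EV libraries and 37.1 CPM in Intracellular libraries, with miR-223-3p and miR-142-5p at 0 in EV. The summed levels of the endothelial, myelinating glia and neuronal markers overlapped between the groups, at 259.9 to 435.7, 0 to 47.4 and 2160 to 2578 CPM in EV libraries and 141.4 to 390.3, 8.16 to 20.1 and 1580 to 3277 CPM in Intracellular libraries. Both neuronal miRNAs tested, miR-9a-5p (-0.89) and miR-128-3p (-0.62), were called lower with edgeR and TMM scaling and neither with total counts (-0.34 and 0.03). miR-124-3p, also on the neuronal list, had no row of its own in the count table. For comparison, 25.6% of all 328 miRNAs were called higher and 17.1% lower with TMM, 32.6% and 0.915% with total counts. The part of serum, liver or blood RNA in the level of miR-423-5p was not tested.

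Base composition was also set beside the arms, since the median fold change of known miRNAs was larger at high GC content. The median log2 fold change was -0.29 for 54 known miRNAs under 40% GC, -0.34 for 117 from 40% to under 50%, 0.17 for 86 from 50% to under 60%, which hold miR-423-5p, and 0.82 for 32 of at least 60%, which hold miR-423-3p. Over all 289 known miRNAs tested, 60 were called higher and 56 lower with edgeR and TMM scaling. Of all 328 miRNAs, 25.6% were called higher and 17.1% lower with TMM and 32.6% and 0.915% with total counts. Of the 32 with at least 60% GC, 15 were called higher and 2 lower with TMM, 20 and 0 with total counts. The most abundant of them in EV were miR-99b-5p, miR-341 and miR-351-5p, which averaged 10605 ± 463, 2322 ± 374 and 1404 ± 119 CPM in EV libraries, against 10331 ± 2196, 1134 ± 28.8 and 1314 ± 454 CPM in Intracellular libraries (SD, n = 3 each). Their log2 fold changes with TMM scaling were -0.60, 0.32 and -0.50, and miR-99b-5p and miR-351-5p were the 2 lower calls. With total counts the values were 0.04, 1.04 and 0.10, and miR-341 alone was called, as higher. Within its class, 2 of the other 85 miRNAs had a larger log2 fold change than miR-423-5p. Some miRNAs of at least 60% GC passed the filter through their EV libraries alone. Examples are miR-345-5p and miR-760-3p, at 2.82 and 4.85 CPM on average in Intracellular libraries. The higher calls and the median of that class are thus partly set by the filter. The part of base composition in the level of either arm was not tested.

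**Figure D4:**
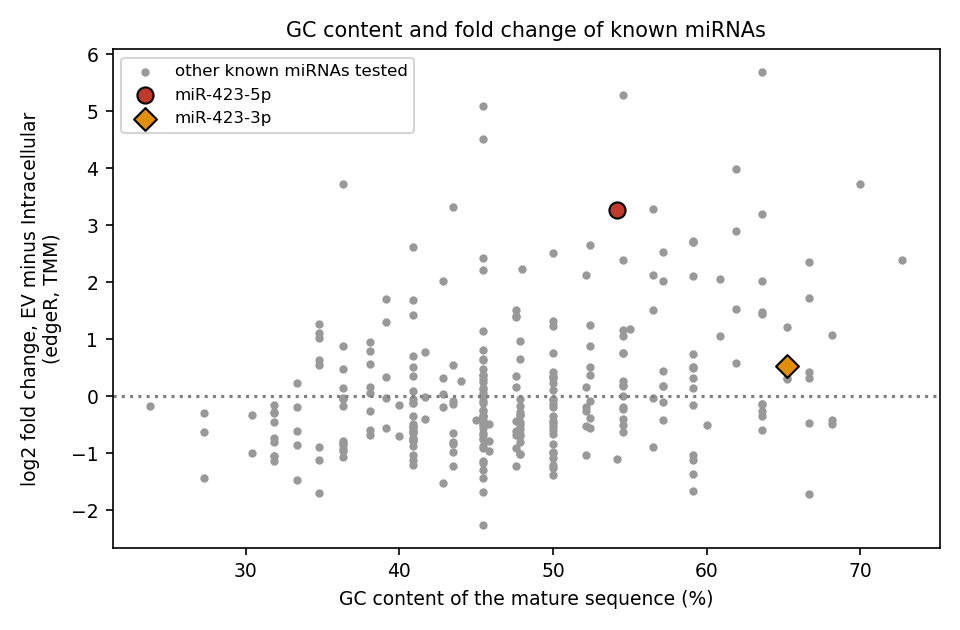
Log2 fold change (EV minus Intracellular, edgeR with TMM scaling) against the GC content (%) of the mature sequence for 289 known miRNAs, 1 point each, with miR-423-5p (circle) and miR-423-3p (diamond) marked. The 5p arm lies at 54.2% GC and 3.27, the 3p arm at 65.2% GC and 0.52.

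Last, the arms were searched for GGAG and CCCU, which have been reported as frequent in miRNAs of vesicles from human T cells. The search covered the mature strand. miR-423-5p holds neither, and miR-423-3p holds CCCU outside its seed. GGAG was found in 7.99% and CCCU in 9.44% of the 551 known miRNAs. The median log2 fold change was -0.0015 for the 25 tested miRNAs with GGAG and -0.15 for the 264 without it, and -0.44 for the 20 with CCCU and -0.13 for the 269 without it.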

How the data were processed

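Small RNA libraries of 3 EV and 3 Intracellular samples were compared. Per the labels' protocols, the RNA received an adapter at each end and the cDNA was size-selected on a gel after PCR. The submitters' processing notes name cutadapt and the build Rnor_6.0. How reads were aligned and counted, and against which miRNA database, is not given in the sources used here. The deposited counts are whole numbers per mature miRNA, made by the authors. Their deposited TPM hold no length term: they equal CPM, the counts scaled to 1000000 per library (largest difference 4.78e-05).

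The whole count table was fitted in edgeR 4.0.16 under R 4.3.3 (quasi-likelihood test, TMM, filterByExpr with minimum count 10 and minimum total 15, robust, 2-sided, Benjamini-Hochberg adjusted p under 0.05), and the procedure was tested on simulated data. miRNAs past that threshold are termed calls. Standard errors come from the F statistic. Both arms were taken from their own rows. Arm ratios used single-name rows ending in -5p and -3p. The hairpin was folded with ViennaRNA 2.7.2. Of the 551 known single-name miRNAs, 505 had a RefSeq mature sequence, and the GC contents and motifs come from the deposited sequences. Alternatives were other scalings and filters, known miRNAs alone, DESeq2 1.42.0, limma 3.58.1, a replicate block, other prior counts and each library left out.

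The members, lists and tests were chosen with earlier results of these data known. Other miRNAs were named by rule: the 5 most alike in profile to each arm, the 5 precursors with the largest moves, the 3 neighbours of miR-423-5p on each side in EV level, the lists of reference and of liver and serum miRNAs, those sharing a seed, and the 3 most abundant of at least 60% GC. miR-484, the miRNAs named for passing the filter through EV libraries and the single fibroblast, erythroid, leukocyte and neuronal markers were named after their values were seen.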

Additional observations from a re-analysis of the deposited data

How the results depend on the processing

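The log2 fold change of miR-423-5p was above 0 under all alternatives run. It was 3.27 with TMM and moved by more than the spread between replicates with total counts (3.94), limma on log2(TPM + 1) (3.94), upper quartile scaling (3.02) and no filter (3.13), and without 1 library it was 3.07 to 3.56. That of miR-423-3p was 0.52, 1.14 with total counts, 1.16 with limma on log2(TPM + 1), 0.27 with upper quartile scaling, 0.38 with no filter and 0.34 to 0.71 without 1 library. The difference in log2 5p to 3p ratio stayed at 2.62 to 2.92 over its alternatives. More precursors than 3 moved further than miR-423 with a prior count of 5 (6), and without 1 library they numbered 2 to 6, with 6 without EV replicate 3 and 5 without Intracellular replicate 2 or 3.

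Over all miRNAs, 84 of the 328 tested were called higher and 56 lower. The settings tested different numbers of miRNAs, so their counts of calls are not directly comparable. Without a filter 197 of 1071 were higher. Leaving out 1 library gave 50 to 69, with 50 of 195 without Intracellular replicate 2 or 3. Lower calls numbered 3 with total counts, 2 with limma on log2(TPM + 1) and 92 with upper quartile scaling, each of 328. With known miRNAs alone they were 37 of 290. Without 1 library they were 26 to 55, with 26 of 376 without EV replicate 1 and 27 of 195 without Intracellular replicate 2 or 3. Of the miRNAs, 195 passed the filter without Intracellular replicate 2 or 3, and 196 without replicate 1. With the latter, 56 were called higher and 55 lower. The filter's CPM cutoff is the minimum count divided by the median library size. Without 1 Intracellular library that median is an EV total, 105578, so the cutoff rises and fewer miRNAs pass. Without 1 EV library 369 to 380 passed. The cause of other shifts in the number of calls was not tested.

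The labels do not say whether same-numbered EV and Intracellular libraries come from the same culture. Their deviations from the group means correlated at 0.035, 0.092 and -0.02. With 3 libraries per group and shallow EV libraries, these values cannot tell whether the libraries are paired. With a replicate block the log2 fold changes were 3.28 and 0.52 for the 5p and 3p arms, the difference in log2 ratio was 2.75, and 87 miRNAs were higher and 46 lower.

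EV depth limits the 3p arm, at 47 to 75 counts per library, more than the 5p arm.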
